A study of Mus musculus with 8 samples.

Results

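Newly made RNA was compared between wildtype E14 mouse embryonic stem cells and 2 clones that are H3f3a A/A H3f3b WT/A. In these clones 3 of the 4 alleles that encode histone H3.3 carry alanine in place of lysine 122. All 16254 genes of the authors' deposited table for this comparison were taken, 15640 of them with an adjusted p. The deposited fold changes of this comparison rest on 5 of the 8 libraries of the series: 3 of wildtype cells and 1 of each clone. By their labels, the wildtype libraries form a biological triplicate. The clones are separate lines of 1 genotype, each profiled in a single library, so the spread within that group is between lines and holds culture and clonal differences together. The reciprocal line, H3f3a WT/A with H3f3b A/A, also has 3 mutant alleles, with the untouched allele in H3f3a. It was a single line with a single library, and was reached here only by subtraction. That used the authors' deposited table that sets all 3 dual-targeted lines against the same wildtype libraries. The group means rebuilt below, those of wildtype and the clones included, also draw on the deposited tables with single-targeted lines. In these lines only 1 of the 2 genes was changed, on both alleles: H3f3a in 1 library and H3f3b in 1 other. All 8 libraries thus enter the rebuilt counts. All lines were labelled for 5 min with 500 nM 4-thiouridine, and no other treatment is listed. The protocol describes a LIF medium and one that adds inhibitors of GSK3 and MEK, not which of them these libraries had.

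Histone H3.3 is the replacement form of histone H3. Chaperones such as HIRA and the ATRX-DAXX pair place it into chromatin outside DNA replication, at active genes and enhancers and at telomeres and other repeats. H3f3a and H3f3b encode the same protein. Lysine 122 lies on the side of the nucleosome core where DNA is held tightly, and can be acetylated, while alanine cannot. Transient transcriptome sequencing (TT-seq) purifies RNA that took up 4-thiouridine during a short pulse, so its counts follow recent synthesis more than the amount of stored RNA.

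The 2 target codons are shown because they define the genotype. Both lie in exon 4 of 4, in coding sequence on the minus strand (GRCm38, GENCODE M21). The codon, AAA in both genes, is in capitals, numbered without the first methionine as is usual for histones (K122A), with 21 coding bases on each side, read 5′ to 3′.
H3f3a, chr1:180803098-180803142: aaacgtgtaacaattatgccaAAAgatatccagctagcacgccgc
H3f3b, chr11:116023428-116023472: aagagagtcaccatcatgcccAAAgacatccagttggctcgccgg
These windows of 45 bases differ at 12 bases, and the whole coding sequences differ at 95 of 408 bases while the proteins are identical. Gene counts can therefore tell H3f3a from H3f3b, but the counts per gene do not show which allele a read came from, so they do not check the genotype at the codon.

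RNA from H3f3b was higher in the clones and that from H3f3a did not pass the test. The log2 fold change of H3f3b was 0.84 ± 0.27 (SE; adjusted p = 0.00351) and that of H3f3a 0.17 ± 0.22 (adjusted p = 0.589) in the authors' deposited table. The tables hold no value per library, so group means were rebuilt here from the tables' means over known numbers of libraries; they carry no error. For H3f3b the rebuilt normalized count was 2514 in wildtype, 4846 in the clones and 367 in the reciprocal line. For H3f3a it was 912, 1057 and 949. The clones, with 1 wildtype copy of H3f3b, thus had the highest H3f3b level of the 3 groups and the line with no wildtype copy the lowest. The H3f3b difference over all 3 dual-targeted lines was 0.06 ± 0.36 (SE; adjusted p = 0.8), again as listed in the authors' deposited table. The value of the single line is the least secure: with another scaling of the tables it came out below 0 (-437), so only its place under both other groups is described.

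Of the 15640 genes tested, 3021 (19.3%) were called at an adjusted p under 0.05: 1416 (9.05%) were higher in the clones and 1605 (10.3%) lower. The median size of a called difference was 0.84 log2 units among higher and 0.97 among lower genes, and 530 higher and 760 lower genes differed by at least 1 log2 unit, on the deposited scale. Differences of at least 3 log2 units were held by 18 higher and 17 lower genes. In the authors' deposited table, 1810009A15Rik lay just inside the threshold at 0.69 ± 0.35 (SE; adjusted p = 0.0499) and Zhx1 just outside it at 0.68 ± 0.34 (adjusted p = 0.05). Since RNA was pooled from whole cultures, fewer cells making a transcript and less RNA per cell cannot be told apart. A direction below is relative to the median gene, which stood at 0.00 in this table.

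**Figure D1:**
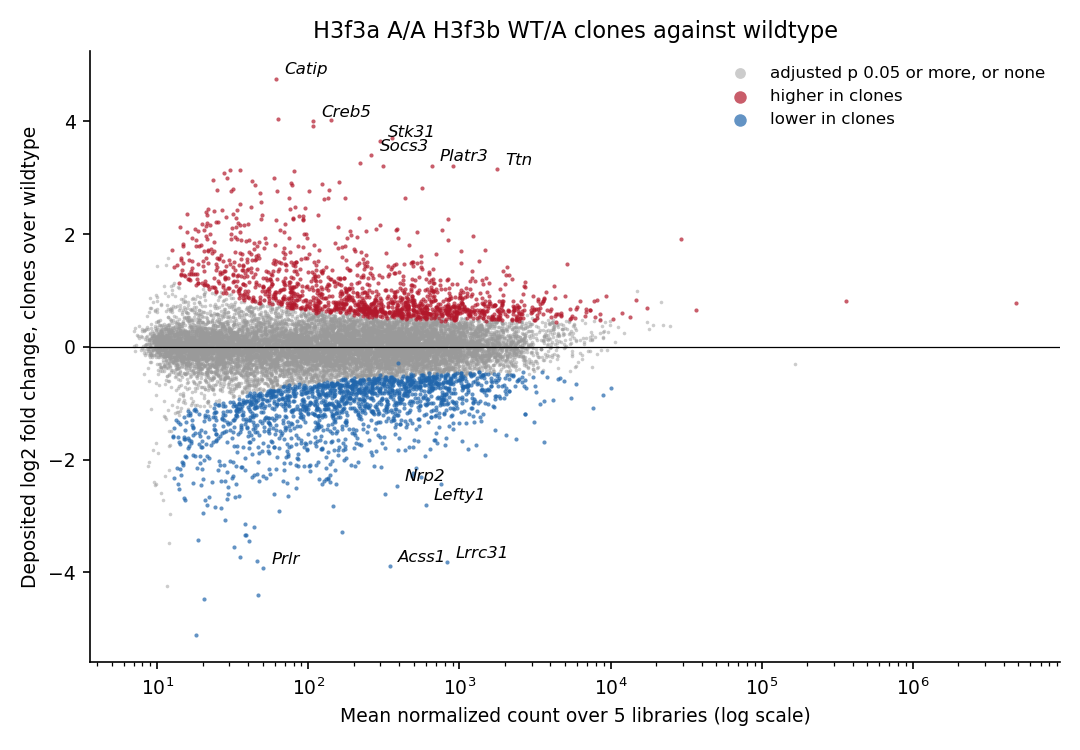
Each point is a gene of the authors' deposited table for the clones, with its mean normalized count over the 5 libraries (log scale) on the horizontal axis and the log2 fold change of the clones over wildtype on the vertical axis. Red marks the 1416 genes called higher, blue the 1605 called lower; Catip reaches 4.76 and Acss1 -3.89.

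The largest rises among genes with a mean count of at least 50 belonged to genes of unrelated roles, and most started from a low wildtype level. Catip, which takes part in making cilia, led with a log2 fold change of 4.76 ± 0.52 (SE) in the authors' deposited table, from a rebuilt count of 4.67 in wildtype to 140 in the clones. It was followed there by Rbfaos at 4.02, the transcription factor gene Creb5 at 4.00, the adhesion receptor gene Adgrg6 at 3.91 and Soga3 at 3.71. The authors' deposited table listed the adjusted p of these 5 genes at 0. Rbfaos is an antisense transcript, and since whether counting used strand is not stated, its reads cannot be told apart from those of its partner. The long noncoding RNAs Miat (3.26) and Platr3 (3.22) and the gene of the giant muscle protein titin, Ttn (3.15), came next in the authors' deposited table with the germline and signalling genes described below. Ttn was already at a rebuilt count of 400 in wildtype and reached 3625 in the clones. Platr3 went from 142 to 1352.

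Among falls, some genes with a clear wildtype level were left with a small part of it. Acss1, which makes acetyl-CoA from acetate in mitochondria, fell by 3.89 (SE 0.29) in the authors' deposited table, from a rebuilt count of 529 to 31.9. Lrrc31 fell by 3.83 (SE 0.29), from 1269 to 80.5. The prolactin receptor gene Prlr had the largest fall by this rule, -3.93 ± 0.61 (SE; adjusted p = 2.41e-09) in the authors' deposited table, but was not in all 4 tables and has no rebuilt level. Other large falls there were those of Sgo2b (-3.29), Crispld1 (-2.91), the neuronal adaptor subunit gene Ap3b2 (-2.82), Lrrc15 (-2.64), Prr36 (-2.62), the DNA repair glycosylase gene Neil2 (-2.60) and Patl2 (-2.50). Sgo2b has a close copy, Sgo2a, so its counts are uncertain where reads match both. Sgo2b and Prr36 lie on chromosome 8 and Neil2 on chromosome 14, where many genes were lower in the clones (below).

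No core pluripotency gene was called lower. Of 14 members 7 were called higher, with a median log2 fold change of 0.52. They included Pou5f1, the gene of OCT4, at 0.73 ± 0.24 (SE; adjusted p = 0.00656), Nanog at 0.49 ± 0.20 (0.0331), the RNA-binding protein gene L1td1 at 0.90 ± 0.23 (3.90e-04) and Sall4 at 0.74 ± 0.21 (0.00187) in the authors' deposited table. Sox2 (0.12 ± 0.21, adjusted p = 0.695) and Zfp42, a naive marker also known as Rex1 (-0.16 ± 0.17, adjusted p = 0.544), did not pass the test there. Rebuilt counts of Pou5f1 were 1668 in wildtype, 2943 in the clones and 2915 in the reciprocal line.

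Naive pluripotency genes went both ways, with 4 of 16 called higher, 4 lower and a median of -0.03. Higher in the authors' deposited table were the transcription factor genes Gbx2 (1.77 ± 0.28, SE), Tbx3 (1.27 ± 0.22), Klf4 (1.19 ± 0.22) and Klf5 (1.07 ± 0.20). Lower were Fgfr2, a receptor for fibroblast growth factors (-1.59 ± 0.26), the AKT cofactor gene Tcl1 (-1.57 ± 0.27), Klf2 (-1.25 ± 0.29) and the adhesion molecule gene Pecam1 (-0.93 ± 0.23). Klf2 lies on chromosome 8, where many genes were lower (below). Formative and primed genes were also mixed, with 4 of 14 called higher and 3 lower: Foxd3 (2.35 ± 0.34) and Lef1 (1.93 ± 0.23) rose, and Zic2 (-1.18 ± 0.25) and Otx2 (-1.01 ± 0.36) fell in the authors' deposited table. The 3 that fell, Zic5 among them, all lie on chromosome 14, Otx2 in its low stretch, and without chromosomes 8, 14 and Y the median of this list was 0.42 in place of 0.02.

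The LIF and STAT3 pathway keeps mouse embryonic stem cells undifferentiated: LIF binds a receptor pair, JAK kinases phosphorylate STAT3, and STAT3 switches on targets that include its own inhibitors. Here 8 of 18 members were called higher and none lower (median 0.37), and all 8 were targets or STAT3 itself. The feedback inhibitor gene Socs3 had the largest change of the list, 3.40 ± 0.32 (SE) with an adjusted p listed at 0 in the authors' deposited table; its rebuilt count was 49.9 in wildtype, 549 in the clones and 443 in the reciprocal line. Bcl3, a nuclear IκB protein gene, rose by 2.62 ± 0.33 (adjusted p = 3.52e-14) and Cish, another feedback inhibitor gene, by 2.32 ± 0.36 (7.24e-10) in that table. The kinase genes Pim3 (1.21 ± 0.26) and Pim1 (1.12 ± 0.26) rose as well, and Stat3 by 0.51 ± 0.21 (adjusted p = 0.0395) in the authors' deposited table. The receptor subunit gene Il6st stood at -0.37 ± 0.19 (adjusted p = 0.112) and Jak2 at -0.40 ± 0.33 (0.244) there. Scaling by summed counts, which moves the median gene of the clones to -0.51, turns the rebuilt median of this list from 0.41 to -0.11.

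The start regions of Socs3 and Cish are shown because both inhibitor genes hold the letters to which STAT proteins bind, TTCNNNGAA (a palindrome at its fixed letters, so both strands are covered). RefSeq windows of GRCm38.p6 run from 250 bases before to 50 after the gene start, 5′ to 3′ on the gene's own strand, with matches in capitals.
Socs3, chr11:117969317-117969616, minus strand: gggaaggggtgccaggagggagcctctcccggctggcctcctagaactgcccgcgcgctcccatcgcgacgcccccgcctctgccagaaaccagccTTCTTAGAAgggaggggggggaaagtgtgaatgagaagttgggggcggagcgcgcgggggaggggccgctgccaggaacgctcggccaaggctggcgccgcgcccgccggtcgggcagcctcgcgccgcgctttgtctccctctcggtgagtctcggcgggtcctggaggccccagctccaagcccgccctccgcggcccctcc
Cish, chr9:107296409-107296708, plus strand: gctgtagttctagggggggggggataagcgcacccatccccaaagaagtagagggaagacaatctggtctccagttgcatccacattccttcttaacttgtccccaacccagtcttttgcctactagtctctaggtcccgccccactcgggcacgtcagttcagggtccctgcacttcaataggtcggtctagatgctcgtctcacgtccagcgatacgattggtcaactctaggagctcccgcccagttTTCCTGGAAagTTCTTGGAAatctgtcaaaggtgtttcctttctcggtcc
Of the 17 members with a window, these 2 held a match (11.8%), against 8.3% of 32851 promoter windows and 7.96% of the measured genes with a window. A match in these letters is a description, and the other risers had none within the window.

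ERK outputs were called higher in 7 of 17 cases and lower in 1 (median 0.25). The ETS factor genes Etv4 (2.10 ± 0.26, SE) and Etv1 (1.19 ± 0.24) and the gene Phlda1 (2.77 ± 0.50) rose in the authors' deposited table. Dusp4, a phosphatase that turns ERK off, was the member that fell, by 1.66 (SE 0.30); it lies on chromosome 8, and its rebuilt count was 336 in wildtype, 97.5 in the clones and 313 in the reciprocal line. Of the Nodal and BMP list, 6 of 18 were called higher and 7 lower. The secreted Nodal inhibitor genes Lefty1 (-2.80 ± 0.29) and Lefty2 (-2.23 ± 0.30) fell most in the authors' deposited table, while Nodal itself was at 0.67 ± 0.27 (adjusted p = 0.0249). The BMP-responsive genes Id3 (1.44 ± 0.36) and Id1 (1.14 ± 0.42) rose and Id4 fell (-1.72 ± 0.38) there. Lefty1 went from a rebuilt count of 874 to 116.

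Germline genes are mostly silent in embryonic stem cells, held down by DNA methylation and by E2F6 and PRC1.6 with the MGA-MAX pair, which reads the E-box letters CACGTG. Of 24 tested members 8 were called higher and 1 lower (median 0.15 over the 27 listed there). Stk31, which encodes a germ cell protein with a kinase-like part, rose by 3.65 ± 0.37 (SE) and Tex19.1, which limits retrotransposons, by 3.21 ± 0.31 in the authors' deposited table, both with an adjusted p listed at 0. Stra8, the retinoic acid target that starts meiosis, rose by 3.00 ± 0.46 (adjusted p = 9.84e-10) there. The piRNA pathway helicase genes Mov10l1 (1.92 ± 0.40) and Ddx4 (1.17 ± 0.32), the piRNA factor genes Mael (1.49 ± 0.60) and Tdrd1 (1.36 ± 0.58) and the homeobox gene Rhox5 (0.95 ± 0.33) were the other risers in the authors' deposited table. Prdm1, which starts the germ cell fate, fell by 2.05 (SE 0.28). Rebuilt counts of Stk31 were 48.7 in wildtype and 635 in the clones, and those of Stra8 were 13.9 and 121. Scaling by summed counts turns the rebuilt median of the list from 0.26 to -0.22.

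The windows of Stk31 and Ddx4, which rose and hold CACGTG (in capitals; the letters are the same on both strands), and of Tex19.1, which rose and does not, show both kinds. They follow the same build and limits as above.
Stk31, chr6:49395289-49395588, plus strand: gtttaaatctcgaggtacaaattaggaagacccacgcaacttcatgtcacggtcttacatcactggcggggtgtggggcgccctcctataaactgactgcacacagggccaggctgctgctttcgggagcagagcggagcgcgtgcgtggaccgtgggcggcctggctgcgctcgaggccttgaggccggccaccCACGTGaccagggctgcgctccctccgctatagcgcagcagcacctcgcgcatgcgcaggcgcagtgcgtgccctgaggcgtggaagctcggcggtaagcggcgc
Ddx4, chr13:112652261-112652560, minus strand: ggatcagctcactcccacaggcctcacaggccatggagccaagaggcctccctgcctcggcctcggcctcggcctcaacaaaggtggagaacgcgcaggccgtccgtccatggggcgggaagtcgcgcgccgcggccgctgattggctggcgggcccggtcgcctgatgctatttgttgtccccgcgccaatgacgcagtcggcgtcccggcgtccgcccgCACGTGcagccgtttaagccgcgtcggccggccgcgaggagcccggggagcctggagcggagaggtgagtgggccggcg
Tex19.1, chr11:121145893-121146192, plus strand: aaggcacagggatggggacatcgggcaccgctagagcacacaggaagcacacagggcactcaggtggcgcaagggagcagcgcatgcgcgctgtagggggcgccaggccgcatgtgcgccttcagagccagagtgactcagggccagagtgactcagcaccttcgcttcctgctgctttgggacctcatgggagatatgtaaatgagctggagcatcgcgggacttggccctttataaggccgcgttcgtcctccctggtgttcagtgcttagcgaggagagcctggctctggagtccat
The match began 55 bases before the start in Stk31 and 29 before it in Ddx4. Of 21 germline members with a window, 10 (47.6%) held CACGTG, against 7.15% of 32851 windows and 11.9% of the measured genes with a window. Members with a match were found among risers (Ddx4, Mael, Mov10l1, Stk31 and Tdrd1) among genes that did not pass the test (Hormad1, Sycp1 and Sycp3) and among genes without an adjusted p (Brdt and Tdrd9). Stra8, Rhox5 and Tex19.1 rose without one.

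Genes of protein synthesis and breakdown were called higher far more often than lower. Of 83 cytosolic ribosomal protein genes 43 were called higher and none lower (median 0.58), among them Rpl30 at 0.86 ± 0.21 (SE; adjusted p = 2.71e-04) and Rpl9 at 0.90 ± 0.23 (2.84e-04) in the authors' deposited table. Ribosomal protein genes have many processed copies, so single values are uncertain where reads match more than 1 place. Translation factors were called higher in 13 of 34 cases and none lower (median 0.46), led by Eif2s2 (1.47 ± 0.25), a subunit of the factor that brings the first tRNA, and Eif5a (1.06 ± 0.21). Nucleolar genes of ribosome assembly gave 14 of 39 higher and none lower (median 0.40), such as Nhp2 (1.02 ± 0.25) in the authors' deposited table. The proteasome, which degrades marked proteins, had 17 of 31 genes higher and none lower (median 0.54); Psmc1 of its ATPase ring stood at 0.83 ± 0.23 and the core subunit gene Psmb7 at 0.71 ± 0.22 in the authors' deposited table. Their median gene lengths, from 3232 bases for ribosomal proteins to 15316 for translation factors, were under the 17384 of all genes in the table, and short genes were called higher more often in general (below). With the length trend taken out, the medians were 0.51 for ribosomal proteins, 0.43 for translation factors, 0.36 for nucleolar genes and 0.47 for the proteasome. Scaling by summed counts takes the rebuilt medians of these lists from 0.69 to 0.30, from 0.52 to 0.12, from 0.46 to 0.06 and from 0.62 to 0.22, in the same order.

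Chaperone genes were also called higher more often than lower. Of 15 heat shock genes tested 6 were called higher and none lower (median 0.41), with Hsph1 at 1.34 ± 0.20 (SE) and the mitochondrial pair Hspd1 (1.07 ± 0.23) and Hspe1 (1.17 ± 0.27) in the authors' deposited table. In the endoplasmic reticulum 7 of 20 chaperone and stress genes were higher and 1 lower (median 0.33): Hspa5, the gene of BiP, reached 1.27 ± 0.26 and Hsp90b1 0.97 ± 0.26 in the authors' deposited table. Among 26 integrated stress response genes, driven by ATF4, 2 were higher and 2 lower (median -0.02), a share near that of all genes. Atf4 was at 0.66 ± 0.26 (adjusted p = 0.0196) and its target Chac1 at -1.01 ± 0.39 (0.00848) in that table.

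Respiratory chain genes of the nucleus were called higher in 14 of 65 cases and none lower (median 0.39), with Cox7c at 1.11 ± 0.22 (SE) in the authors' deposited table. Of 20 genes encoded in mitochondrial DNA 8 were higher and none lower (median 0.60), and 7 of the 8 were transfer RNA genes, such as mt-Tp at 2.03 ± 0.28 and mt-Tw at 2.29 ± 0.32 in the authors' deposited table. The remaining one was mt-Nd6, a complex I subunit gene and the only protein gene on its strand, at 1.92 ± 0.56 (adjusted p = 7.96e-04). Other mitochondrial protein genes were far less certain: mt-Nd1 stood at 1.00 ± 1.04 (adjusted p = 0.0777) and mt-Co1 at 0.80 ± 0.78 (0.101) in the authors' deposited table.

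Targets of p53, the factor that answers DNA damage, were called higher in 14 of 34 cases and lower in 1 (median 0.47). The other 19 did not pass the test. The polo-like kinase gene Plk2 reached 2.16 ± 0.26 (SE; adjusted p = 5.40e-15), cyclin G1 gene Ccng1 1.14 ± 0.23 (2.69e-06), Mdm2, which marks p53 for degradation, 0.82 ± 0.19 (1.30e-04) and the death effector gene Perp 2.12 ± 0.50 (5.75e-05) in the authors' deposited table. The member that fell, Tnfrsf10b (-0.92 ± 0.25), lies in the low stretch of chromosome 14. Plk2 had rebuilt counts of 117 in wildtype, 542 in the clones and 543 in the reciprocal line. Imprinted genes were higher in 6 of 22 cases and lower in 2, with Peg10 at 1.64 ± 0.25 and the growth inhibitor gene Cdkn1c at 2.04 ± 0.39 in the authors' deposited table. Immediate early genes gave 2 of 16 higher and none lower, interferon response genes 4 of 12 higher and 4 lower, Wnt genes 3 of 18 in each direction and extracellular matrix genes 6 of 32 higher and 4 lower. Among matrix genes Sparc rose (1.63 ± 0.26) and the fibronectin gene Fn1 fell (-1.08 ± 0.21) in the authors' deposited table.

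Histone genes that are made during DNA replication were the group with the lowest median. Of 59 tested 31 were called lower and none higher (median -0.64 over 61 in the table). Hist1h2bg was at -1.35 ± 0.25 (SE; adjusted p = 5.59e-07) and Hist1h2ac at -1.45 ± 0.28 (8.88e-07) in the authors' deposited table, with rebuilt counts of 360 and 258 in wildtype and 132 and 87.7 in the clones. These genes are near copies of one another, so reads may be shared among them. Of 40 other genes of DNA replication 1 was higher and none lower (median 0.08), and cell cycle genes gave 4 of 36 higher and 3 lower (median 0.06).

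Genes of lipid synthesis and of the low-oxygen response were called lower more often than higher, in part on chromosomes 8 and 14. Of 26 genes of cholesterol and fatty acid synthesis 7 were called lower and none higher (median -0.31), among them the desaturase genes Scd1 (-1.79 ± 0.23, SE) and Scd2 (-1.02 ± 0.18) and the sterol oxidase gene Msmo1 (-1.19 ± 0.21) in the authors' deposited table. Of the 7, Msmo1 lies on chromosome 8 and Fdft1 (-1.16 ± 0.23) in the low stretch of chromosome 14. The genes of their master regulators, Srebf1 (-0.70 ± 0.26, adjusted p = 0.0123) and Srebf2 (-0.52 ± 0.20, 0.0193), were lower too in that table. The hypoxia list had 8 of 19 lower and 1 higher (median -0.40), with Bhlhe40 (-2.10 ± 0.29), the oxygen-sensing hydroxylase gene Egln3 (-1.72 ± 0.34) and the blood vessel growth factor gene Vegfa (-0.78 ± 0.27) in the authors' deposited table. Of the 8, Bnip3l and Ero1l lie in the low stretch of chromosome 14 and Egln1 on chromosome 8. Glycolysis genes were split, with 4 of 23 higher and 6 lower: Hk2 rose (0.86 ± 0.21) and the lactate dehydrogenase gene Ldhb fell (-1.62 ± 0.22) in the authors' deposited table.

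**Figure D2:**
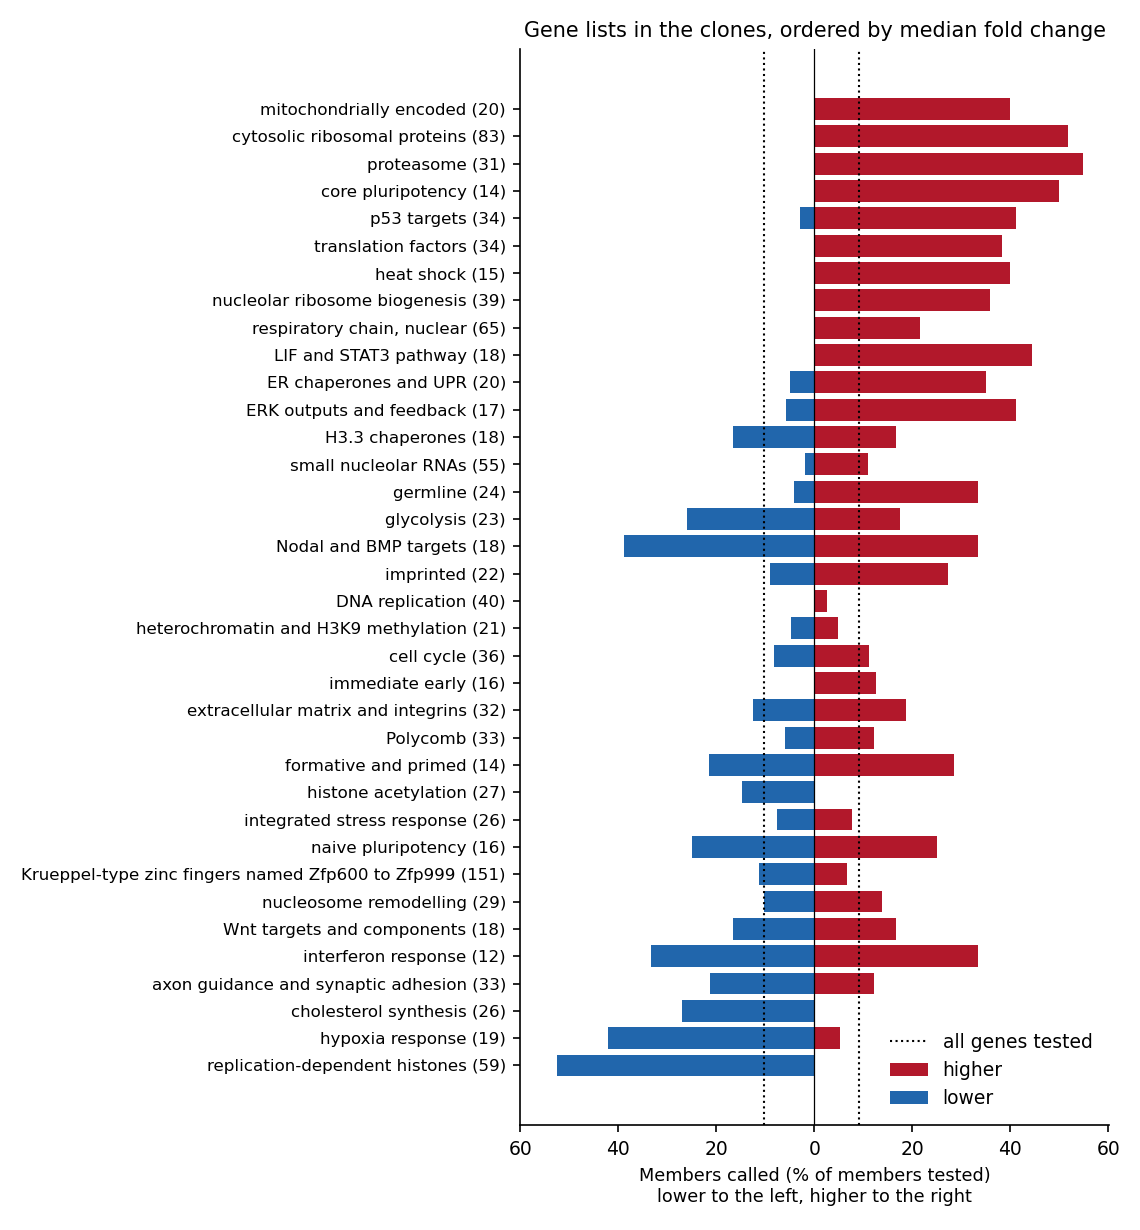
Bars give the percent of tested members called higher (red, to the right) or lower (blue, to the left) in the clones for each list with at least 10 tested members, the number tested in brackets, ordered by median log2 fold change. Dotted lines mark the shares among all genes tested, 9.05% higher and 10.3% lower; ribosomal proteins and the proteasome reach farthest right, replication-dependent histones farthest left.

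Most genes that handle chromatin did not pass the test, which also held for all genes tested (9.05% called higher and 10.3% lower). Of 18 histone chaperone genes 3 were called higher and 3 lower. Rbbp7, a subunit of several chromatin complexes, was at 0.63 ± 0.19 (SE), the H3-H4 chaperone gene Asf1a at 0.68 ± 0.24 and the HIRA complex gene Ubn1 at -0.57 ± 0.21 in the authors' deposited table. Supt16, the large subunit gene of FACT (-0.59 ± 0.19), lies in the low stretch of chromosome 14. Polycomb genes gave 4 of 33 higher and 2 lower (median 0.02), with the PRC2-associated genes Epop (1.47 ± 0.26) and Aebp2 (0.97 ± 0.20) higher and Ezh1, the alternative methyltransferase gene, lower (-0.90 ± 0.21) in the authors' deposited table. Heterochromatin genes gave 1 of 21 higher, the HP1α gene Cbx5 (0.82 ± 0.19), and 1 lower, Mphosph8 (-0.92 ± 0.23), again from that stretch of chromosome 14. Among histone acetylation genes none of 27 was higher and 4 were lower, among them Acss1, Acss2 (-1.18 ± 0.28) and the deacetylase gene Hdac11 (-1.01 ± 0.34) in the authors' deposited table. Nucleosome remodelling genes gave 4 of 29 higher and 3 lower, and the zinc finger genes Zfp600 to Zfp999 gave 10 of 151 higher and 17 lower, close to the shares among all genes.

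Markers of the labelled cell type were present: Pou5f1, Sox2, Nanog, Zfp42 and Esrrb had mean counts from 2230 to 4520 in the authors' deposited table. Of markers of other cell types, 4 of 4 neural genes were in the table at means of 54.5 to 165, 2 of 4 endoderm genes at 9.33 to 12.6 and 2 of 4 fibroblast genes at 9.48 to 23.8. These are the defining markers of each type; the 3 of mesoderm, T, Mixl1 and Mesp1, and the 3 of trophectoderm, Cdx2, Gata3 and Elf5, were not in it. The neural markers were split, with the intermediate filament gene Nes at 1.36 ± 0.44 (SE; adjusted p = 0.00237) and the tubulin gene Tubb3 at 1.10 ± 0.32 (0.00118) higher, Pax6 lower (-0.58 ± 0.27, 0.0429) and Sox1 at -0.13 ± 0.30 (0.729) in the authors' deposited table. On the longer marker lists, the neural one had 2 of 7 called higher and 2 lower, mesoderm 1 of 3 higher, endoderm 2 of 6 higher, trophectoderm none of 5 and fibroblasts 1 of 3 higher and 1 lower. The risers were the receptor gene Kdr (1.52 ± 0.71, SE; adjusted p = 0.0154), the laminin genes Lamb1 (1.21 ± 0.21) and Lama1 (0.95 ± 0.25) and the intermediate filament gene Vim (0.68 ± 0.32, adjusted p = 0.0433) in the authors' deposited table. Fn1 was the fibroblast marker that fell. The part of these markers in the other results was not tested.

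Short genes were called higher more often than long genes, and long genes lower more often. Among protein-coding genes with a mean count of at least 50, the shortest decile (up to 5540 bases) had a median log2 fold change of 0.26, with 22.6% called higher and 5.45% lower. In the longest decile (from 121325 bases) the median was -0.21, with 5.55% higher and 23.1% lower. The rebuilt median of the reciprocal line went the same way, from 0.27 to -0.14. With the trend over length subtracted, the called genes with a known length split into 1394 higher and 1587 lower. The calls themselves were kept and only their signs could change, so this split does not show how many calls depend on length.

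**Figure D3:**
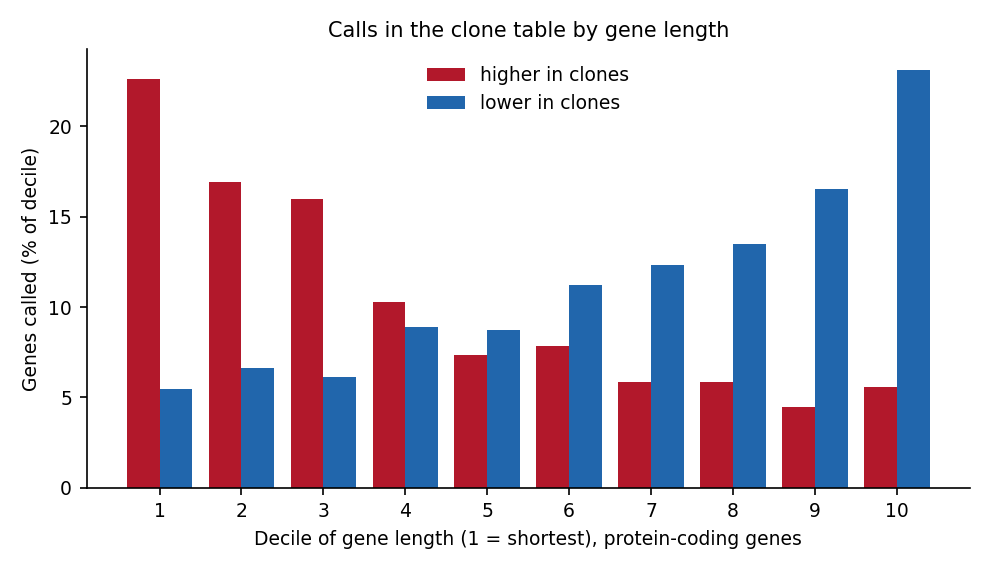
Bars give the percent of protein-coding genes (mean counts of at least 50) called higher (red) or lower (blue) in the clones, by decile of gene length from shortest to longest. The share called higher falls from 22.6% to 5.55% and the share called lower grows from 5.45% to 23.1%.

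Chromosomes 14 and 8 stood apart. Among genes with a mean count of at least 50, 181 of 397 on chromosome 14 were called lower and 19 higher (median log2 fold change -0.51), and 211 of 636 on chromosome 8 were lower and 24 higher (median -0.30). On the 18 other chromosomes, Y left out, medians lay between -0.03 and 0.07 and the share called lower between 6.62% and 13.6%. On chromosome 14, 154 of the 181 lower genes lay in 1 stretch, chr14:45133465-79390778 (GRCm38), from Txndc16 to Naa16. It held 220 genes with such a mean, 4 of them called higher, with a rebuilt median log2 ratio to wildtype of -0.95 in the clones and -0.01 in the reciprocal line. Chromosome 8 was low in both genotypes, with rebuilt chromosome medians of -0.41 and -0.45. DNA copy number was not analysed here, so a change in dose and a change in transcription cannot be told apart. Without chromosomes 8, 14 and Y the calls were 1357 higher and 1164 lower, so 53.8% of called genes were then higher in place of 46.9%.

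**Figure D4:**
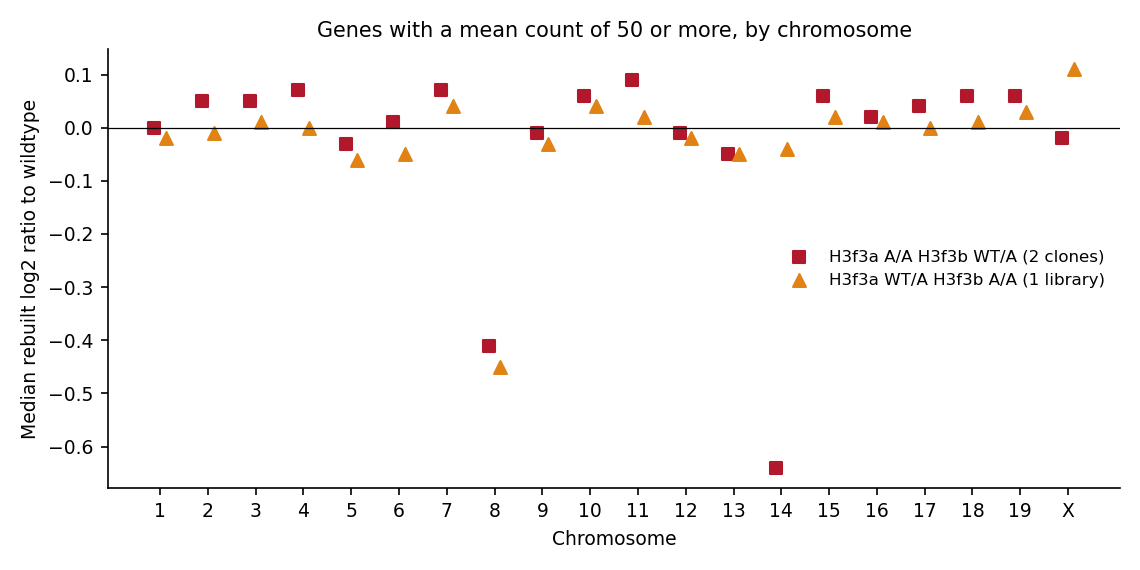
Points give the median rebuilt log2 ratio to wildtype per chromosome over genes with mean counts of at least 50, for the 2 clones (red squares) and the reciprocal library (orange triangles), Y and mitochondrial genes left out. Chromosome 14 is low in the clones (-0.64) and not in the other genotype (-0.04), while chromosome 8 is low in both.

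The reciprocal line was within 1.5-fold of the clones for most called genes, but less often than for genes that were not called. Its rebuilt count was within that range for 1014 (85.2%) of the 1190 higher and 891 (67.8%) of the 1314 lower genes with a mean of at least 50 in all tables. For the 9187 genes that were not called the share was 92.3%. With 1 library there is no test of the difference between the genotypes. Of the lower genes, 388 (29.5%) were more than 1.5-fold higher in that line than in the clones and 35 more than 1.5-fold lower. On chromosome 14 this held for 152 of 181 (84.0%), on chromosome 8 for 27 of 211 (12.8%) and elsewhere for 209 of 922 (22.7%). Of the higher genes, 141 (11.8%) were more than 1.5-fold lower in that line. Choosing genes by their level in the clones can itself give some asymmetry of this kind, and its part here was not tested. Among genes not called, 3.66% were above the clones by that much and 4.06% below. Across all 3 dual-targeted lines, 1785 genes (10.8%) were called higher and 1659 (10.1%) lower than wildtype; that table shares the clones and the wildtype libraries with the first, so the values are set side by side only.

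For some genes that fell in the clones, the rebuilt level of the reciprocal line was near or above wildtype. The semaphorin co-receptor gene Nrp2 had a rebuilt count of 550 in wildtype, 92.3 in the clones and 673 in the reciprocal line. Its log2 fold change was -2.46 ± 0.27 (SE) for the clones, against -0.14 (adjusted p = 0.525) when the 3 dual-targeted lines are joined, each from the authors' deposited table of its comparison. The clock and low-oxygen repressor gene Bhlhe40 was at 269, 58.2 and 356, the extracellular matrix gene Frem2 at 427, 89.4 and 406, the phospholipid flippase gene Atp10a at 184, 37.8 and 180 and the matrix protein gene Smoc1 at 128, 34.5 and 180. Zfp608 (77.7, 34.3 and 151) and the guidance cue gene Sema3e (169, 82.2 and 360) were above wildtype in that line. Fgfr2, of the naive list, followed the same order with 417, 128 and 535.

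Genes of axon guidance and synaptic adhesion held several such cases: 4 of 33 were called higher and 7 lower (median -0.24), and the rebuilt median was -0.45 in the clones and 0.46 in the other line. These genes are long, with a median of 125439 bases, and with the length trend taken out the clone median was -0.07. In the longest decile of protein-coding genes (above), 5.55% were called higher and 23.1% lower. The repellent gene Slit2 was at 229 in wildtype, 63.8 in the clones and 217 in that line, and Slit3 at 104, 29.2 and 88. Mdga1, which restrains synaptic adhesion, rose in the clones from 40.5 to 262 and was at 130 in that line.

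In the other direction, Stra8 had rebuilt counts of 13.9 in wildtype, 121 in the clones and 3.65 in the reciprocal line. Stk31 was at 131 in that line against 635 in the clones, Catip at 33.2 against 140, Emp1 at 47.8 against 189 and A930004D18Rik at 48.7 against 184. Tbx3, of the naive list, was at 1210 in wildtype, 3014 in the clones and 863 there. Tgfbi, a matrix protein gene, was lower than wildtype in both, at 65.5, 22.8 and 3.58. The values of 3.65 for Stra8 and 3.58 for Tgfbi are small remainders of the subtraction and depend on the scaling of the tables. With summed counts set equal, 78 genes fell below 0 in that line. For Stra8 and Tgfbi only its place under both other groups is therefore described. On the Y chromosome, the ubiquitin-activating enzyme gene Uba1y was at 18.1, 166 and 23.4, and Uty, a Y-linked relative of the demethylase gene Kdm6a, at 593, 42.9 and 669. For Uty the log2 fold change in the authors' deposited table was only -0.28 ± 0.57 (SE; adjusted p = 0.0207), far smaller than the rebuilt ratio, so its size is uncertain. Both genes have copies on the X chromosome with which reads may be shared.

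**Figure D5:**
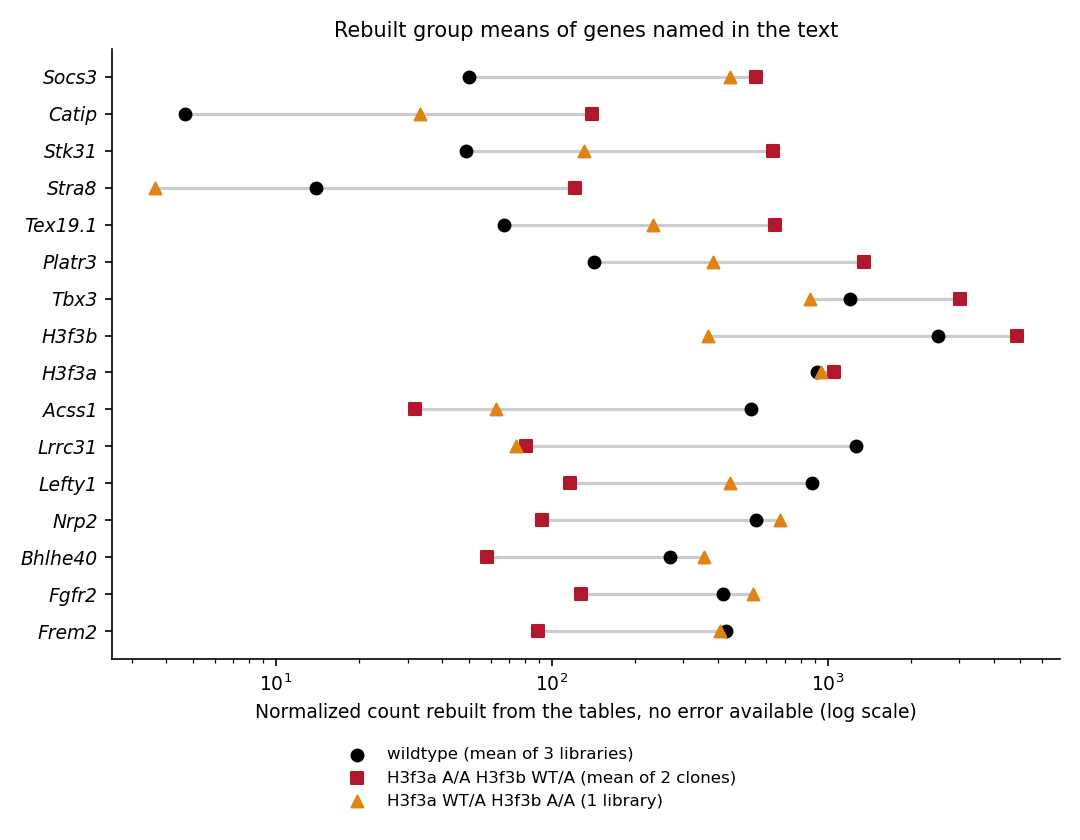
Normalized counts rebuilt from the tables (log scale, no error) are shown for wildtype (black), the clones (red) and the reciprocal line (orange). For Socs3 and Lrrc31 the mutant genotypes lie together; for Nrp2, Bhlhe40, Fgfr2 and Frem2 the clones alone lie far below wildtype, and for H3f3b and Stra8 the other line lies below wildtype while the clones lie above.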

How the data were processed

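TT-seq libraries of mouse embryonic stem cells were processed by the authors before deposit. Tools named in the submitters' processing notes, without versions or roles, were DESeq2, featureCounts, STAR, deepTools and SAMtools; the builds were GRCm38.p6 and mm10. Per the file headers, the deposited tables hold for each gene a signal (the mean of size-factor normalized counts over all libraries in the table), a log2 fold change with its standard error, a p-value and an adjusted p. The 4 tables come from separate DESeq2 fits by the authors, per the file headers. The fold changes appear to be shrunken, by an estimator not named here. No values of single libraries were used, so their depth is unknown, and precision is known only from the deposited standard errors; the median mean count in the clone table was 157 and the lowest 7.08. Of 16254 genes, 614 had no adjusted p, the highest of them at a mean of 12.4, and stayed untested.

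Calls used the deposited adjusted p, under 0.05. Group means were rebuilt from the means of the 4 tables and their numbers of libraries, with scales of 0.957, 0.983 and 1.06 that set the median gene of each group at wildtype; the method was tested on simulated data. For 2504 of 2504 called genes with a mean of 50 or more the rebuilt means had the sign of the fold change, so positive is higher in the clones. Of 15571 genes in all tables, 2 came out below 0 in the reciprocal line (H3f3a WT/A with H3f3b A/A). Log ratios used a pseudocount of 1. Positions are from GENCODE M21, which held 98.4% of the symbols.

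The naming rule took H3f3a, H3f3b, the 12 strongest rises and falls among called genes with a mean of 50 or more (predicted genes left out), up to 4 members of each of 42 lists by adjusted p, and the 8 highest and 8 lowest ratios of the reciprocal line to the clones; further list members were named after their values were seen. Runs of 25 neighbouring genes with a rebuilt median under -0.5 gave the low stretch. The members and lists were chosen with earlier results of these data known. Python 3.11.15 and pandas 2.3.3 were used. Alternatives were a stricter adjusted p, count and size minimums, recomputed Benjamini-Hochberg values, leaving out chromosomes 8, 14 and Y, removing the length trend and other scales.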

Additional observations from a re-analysis of the deposited data

How the results depend on the processing

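No paired analysis was possible because the deposited tables hold no values per library, and for the same reason no replicate was left out in turn. At an adjusted p under 0.01 the clones had 756 higher and 964 lower genes, and all dual-targeted lines 1032 and 968. At an adjusted p under 0.05 with a deposited log2 difference of at least 1, these were 530 and 760, and 640 and 621. The 4 counts stayed within 1.5 times under the other 4 alternatives. Removing the length trend, 1 of these, kept the calls and could change only their signs, so it could hardly move the counts. Of 170 called genes named by the rule, 154 passed 0.01 and all 170 passed recomputed Benjamini-Hochberg adjustment. List medians moved by no more than the median standard error of their members for 42 of 42 lists with the length trend out, 39 of 42 without chromosomes 8, 14 and Y and 38 of 41 with a mean of 50 or more. With the summed counts set equal in place of the median gene, H3f3b in the reciprocal line became -437, which has no log ratio, and 78 genes fell below 0 there. Putting that level at 0 with the pseudocount of 1 gives a log2 ratio to the clones of -12.17 in place of -3.72, set by that floor and no measure of size. The median gene of the clones then stood at -0.51, and of 25 lists of 10 or more members with a rebuilt median above 0, 14 turned below 0 and 11 remained above. Gm26917 and Gm42418 held 34.7% of summed counts in wildtype and 47.7% in the clones. The chromosome 14 stretch held 213 and 222 genes with window medians under -0.6 and -0.4, chosen after seeing the data.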

Other observations

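Of the genes looked at, 2 ribosomal RNA genes of mitochondria had the widest gap between a deposited and a rebuilt value. They were chosen after their values were seen. The rebuilt count of mt-Rnr2 was 237 in wildtype, 5434 in the clones and 241 in the reciprocal line, while its log2 fold change was 0.18 ± 0.47 (SE; adjusted p = 0.06) in the authors' deposited table. That of mt-Rnr1 was 0.19 ± 0.48 (adjusted p = 0.0694) there. In the authors' deposited table of all dual-targeted lines, 5 of 16498 genes had no p. Both mt-Rnr1 and mt-Rnr2 were among them, at mean counts of 1100 and 1970. The spread behind these errors lies within the groups, whose single libraries were not analysed here. The value of 5434 is a mean over both clones, and whether each clone was that high was not tested.

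Of the 11692 genes with a mean count of at least 50, 1190 were called higher and 1315 lower. Among them, transcripts of the GENCODE type TEC (mostly unspliced models awaiting experiments) were called lower more often than higher, with 91 of 628 lower and 21 higher (median -0.17), and sense intronic transcripts likewise, with 15 of 100 lower and 2 higher (median -0.15). Small nucleolar RNAs had a median of 0.23, with 7 of 66 called higher, a share near that of all these genes, and 1 lower. Processed pseudogenes were called higher in 15 of 101 cases and lower in 4 (median 0.11). On chromosome 13, the stretch chr13:21945094-23762386 (GRCm38) with its histone cluster held 17 lower and 1 higher of 33 genes, at a rebuilt median of -0.77 in the clones and -0.41 in the reciprocal line. On chromosome 8, chr8:56531522-69625548 held 15 lower and 1 higher of 34, at -0.65 and -0.57.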
